A study of Mus musculus with 5 samples.

Results

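C1q-expressing macrophages of the neonatal mouse growth plate were taken as cells that hold RNA for the complement protein C1q together with RNA for the CSF-1 receptor. A cell was a member when C1qa, C1qb and C1qc gave at least 5 unique molecular identifiers (UMIs, 1 per captured RNA molecule) in sum with at least 2 of the 3 genes detected, when Csf1r gave at least 1 UMI, and when Col2a1 stayed under 200 UMIs per 10000 UMIs of the cell. Members were thus chosen by their measured counts of these 5 genes. In total, 657 of 82516 kept cells were members, out of 84382 barcodes in the files, where a kept cell has 200 to 6000 detected genes and at most 10% mitochondrial UMIs. The data are single-cell UMI counts from 5 C57BL/6J pups, 1 library per pup, from enzyme-digested femoral and tibial growth plate cartilage whose labelled cell type is chondrocytes. Pups 1 and 2 were wild type (WT). Pups 3, 4 and 5 were mutant, with a conditional knock-in of the Trpv4 change p.R594H that is activated by Cre under Col2a1 control, and therefore in cartilage cells. The labels give an age of postnatal day 5 and the series text gives day 3, and the study describes all pups as littermates. A library is 1 animal, so every comparison of genotypes rests on 2 pups against 3.

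C1q is the recognition molecule of the classical complement pathway and is assembled from A, B and C chains, each encoded by its own gene. It is made mainly by tissue macrophages and microglia, which also depend on the receptor CSF1R and its ligands CSF1 and IL34 for survival. In bone and cartilage, macrophages and osteoclasts share this myeloid origin. Resident macrophages of connective tissue clear dying cells, handle iron and lipid, and release chemokines, and many of them carry the scavenger receptors MRC1, LYVE1 and FOLR2.

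The 3 genes of the C1q chains are neighbours on chromosome 4, with C1qb at chr4:136880126-136886200, C1qc at chr4:136889801-136892936 and C1qa at chr4:136895916-136898844 (GRCm38, RefSeq). Pf4 lies at chr5:90772435-90773383 next to Ppbp at chr5:90768518-90770063, and Mrc1 lies at chr2:14229414-14332023. Promoter windows from RefSeq (GRCm38.p6), 250 bases before to 50 bases after the gene start, are shown for the 4 genes on which the identity and the inner division of these cells turn, whose RNAs were found in the same cells. Capitals mark matches, on either strand, to GGAAGT, the core bound by ETS factors, or to the longer GAGGAAGT, which contains it and resembles sites of PU.1, the ETS factor of myeloid cells.
C1qb (chr4:136886151-136886450, minus strand): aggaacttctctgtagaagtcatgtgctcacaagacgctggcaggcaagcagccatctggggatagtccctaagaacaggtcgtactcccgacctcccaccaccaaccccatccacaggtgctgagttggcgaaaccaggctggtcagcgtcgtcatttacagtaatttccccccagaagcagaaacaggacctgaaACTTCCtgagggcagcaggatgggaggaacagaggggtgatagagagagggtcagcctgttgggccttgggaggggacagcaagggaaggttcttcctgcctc
C1qc (chr4:136892865-136893164, minus strand): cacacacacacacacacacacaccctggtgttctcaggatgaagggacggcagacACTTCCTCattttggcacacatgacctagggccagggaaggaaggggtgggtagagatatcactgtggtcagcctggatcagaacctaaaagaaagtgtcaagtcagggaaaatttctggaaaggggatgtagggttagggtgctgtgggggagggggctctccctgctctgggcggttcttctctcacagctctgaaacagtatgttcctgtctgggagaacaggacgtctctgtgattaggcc
Pf4 (chr5:90772185-90772484, plus strand): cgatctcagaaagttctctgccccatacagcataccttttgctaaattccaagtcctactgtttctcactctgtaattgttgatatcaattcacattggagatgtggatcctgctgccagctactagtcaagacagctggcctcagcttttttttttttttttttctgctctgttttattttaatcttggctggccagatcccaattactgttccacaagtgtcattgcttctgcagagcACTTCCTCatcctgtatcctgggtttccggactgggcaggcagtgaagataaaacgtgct
Mrc1 (chr2:14229164-14229463, plus strand): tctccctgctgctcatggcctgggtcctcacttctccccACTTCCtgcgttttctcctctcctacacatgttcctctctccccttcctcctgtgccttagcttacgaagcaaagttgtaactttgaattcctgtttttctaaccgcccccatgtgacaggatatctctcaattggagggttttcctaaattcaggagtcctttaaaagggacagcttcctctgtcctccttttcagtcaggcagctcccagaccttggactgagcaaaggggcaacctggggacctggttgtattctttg
GAGGAAGT was found in the windows of C1qc, starting 195 bases before the gene start, and of Pf4, starting 10 bases before it, both on the strand opposite to the gene. These letters occurred in 3.28% of 27025 promoters of this length, taking the first entry of each gene. The shorter GGAAGT was found in all 4 windows and in 24.1% of the promoters. These matches are descriptions of the letters and no binding was measured.

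The libraries held 117746735 to 183322632 UMIs, and the members contributed 686502 and 2335997 UMIs in the WT pups and 1793264, 734057 and 443862 UMIs in the mutant pups. Members had a median of 9324 and 9575 UMIs in the WT pups and 8089, 6415 and 7697 UMIs in the mutant pups. No barcode of a member occurred in more than 1 library, and 55 of the kept barcodes did. Xist, the RNA that coats the inactive X chromosome, was found in 0, 0, 92.3, 91.3 and 0% of the members of pups 1 to 5, and the Y-linked gene Ddx3y in 50.8, 65.6, 0, 2.91 and 45.5%. Mutant pups 3 and 4 thus stood apart from both WT pups and from mutant pup 5, so sex chromosome content moved with genotype in 2 of the 3 mutant pups. Fits that take this into account are given with the genotype results.

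The macrophages were a small share of the tissue in every pup. Members numbered 63 and 227 in the WT pups and 209, 103 and 55 in the mutant pups. As a share of kept cells they made up 0.417 and 1.37% in the WT pups and 1.09, 0.576 and 0.398% in the mutant pups. The 95% Wilson intervals ran from 0.326% to 0.533% in pup 1 and from 1.20% to 1.56% in pup 2, so the 2 WT pups differed beyond counting error. The mean share was 0.894% ± 0.675 (SD, n = 2) in WT and 0.689% ± 0.361 (SD, n = 3) in mutant pups. The groups overlapped (2-sided exact permutation over 10 placements of the pups, p = 0.6, smallest possible p = 0.1), and without WT pup 2 the sign of the difference turned, from -0.205 to 0.272 percentage points. Intervals cover counting error only, and how much of a share was set by dissection and digestion was not measured. Endothelial cells made up 0.232% to 0.904% and granulocyte-lineage cells 0.0447% to 0.966% of kept cells by the marker limits given in the account of the processing. Granulocyte-lineage cells numbered 146 and 64 in the WT pups and 55, 8 and 20 in the mutant pups. Comparisons with them in every pup thus rest on few cells, above all in mutant pup 4.

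**Figure D1:**
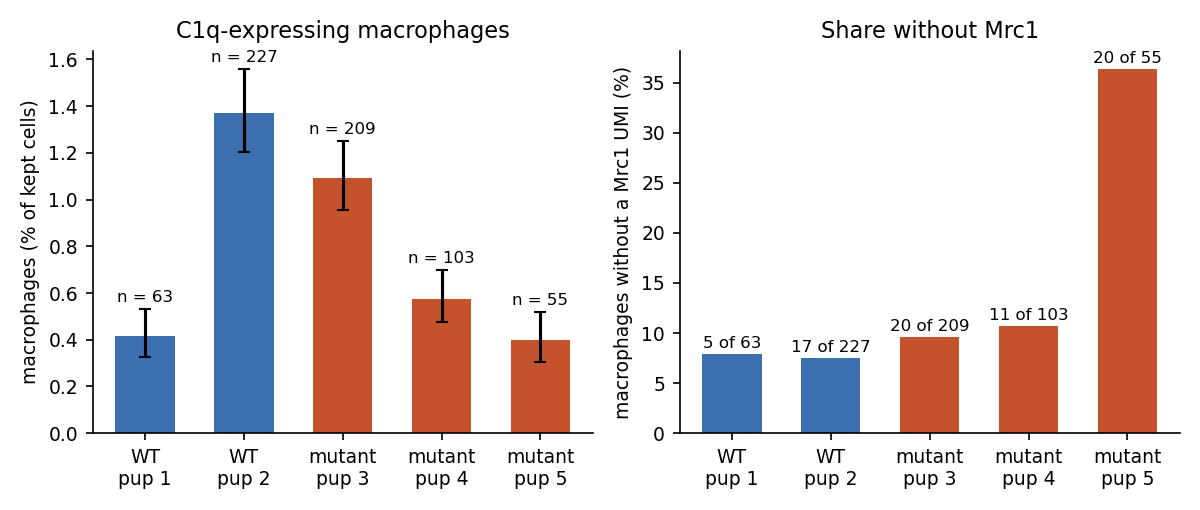
The left panel plots C1q-expressing macrophages as a percentage of kept cells in each pup, with 95% Wilson intervals and the number of cells. The right panel plots the percentage of these macrophages without a Mrc1 UMI, where mutant pup 5 stands at 36.4% and the other 4 pups between 7.49% and 10.7%.

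The genes of the rule set the members apart by construction, and their values are given as a description. Levels are CPM, the counts summed over the members of a pup and scaled to a total of 1000000 UMIs. C1qa reached 1034 and 1014 CPM in the WT pups and 959, 799.7 and 858 CPM in the mutant pups. C1qb reached 743 and 849 CPM in the WT pups and 694, 578 and 789 CPM in the mutant pups. C1qc reached 1455 and 1810.4 CPM in the WT pups and 1778, 1877 and 1915 CPM in the mutant pups. All 3 chains were detected in 628 of 657 members. WT pup 1 stood below the other pups for C1qc, and the groups overlapped for C1qb. Both WT pups lay above every mutant pup for C1qa, as they did for 13.2% of all genes tested. The C1qa level depends on the C1q limit of the rule and is not read as a result. Csf1r reached 809.9 and 945 CPM in the WT pups and 836, 659 and 575 CPM in the mutant pups, with the lowest levels in mutant pups 4 and 5. In all other kept cells of a pup the chains lay at 0.399 to 1.44 CPM, 0.356 to 1.54 CPM and 0.700 to 2.87 CPM, and Csf1r at 1.96 to 4.67 CPM.

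Over all pups, few cells sat at the edge of the rule. 13 members had a C1q sum of exactly 5 UMIs and 40 had 5 to 9, and 19 cells that met the other limits were left out with 2 to 4. 34 members had a single Csf1r UMI, and 13 cells that met the other limits had none. In pups 1 to 5, a C1q sum of exactly 5 was seen in 0, 1, 2, 5 and 5 members. A single Csf1r UMI was seen in 2, 3, 10, 10 and 9 of 63, 227, 209, 103 and 55 members. Edge members were thus most common in mutant pups 4 and 5. 7 members had Col2a1 at 100 to 200 UMIs per 10000, and 55 further cells were left out by the Col2a1 limit. A median member held 31, 36, 27, 21 and 26 C1q UMIs in pups 1 to 5.

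The label macrophage was checked against 23 genes of the mononuclear phagocyte lineage. All 23 had UMIs in the members of every pup, and all 23 exceeded endothelial, Col2a1-high and Col1a1-high cells of the same pup in all 5 pups. Of these, 16 also exceeded granulocyte-lineage cells in all 5 pups. Here and below, counts of list genes above other classes are descriptions, given without the share over all genes. Adgre1, which encodes the macrophage antigen F4/80, lay at 657, 734, 697, 726 and 644 CPM in pups 1 to 5, against 29.5 to 51.7 CPM in granulocyte-lineage cells. Maf, a transcription factor of mature macrophages, lay at 2348, 2491, 2253, 2157 and 1892 CPM, and Ctss, a lysosomal protease, at 1327, 1467, 1272, 1426 and 1949 CPM. Fcer1g, the shared signalling chain of activating Fc receptors, lay at 1881, 1762, 1803, 2028 and 2273 CPM. The macrophage genes that granulocyte-lineage cells matched or exceeded in at least 1 pup included Lyz2, Cybb, Ptprc, Tyrobp and Itgam, which both lineages are known to use. The label macrophage is kept as a description of these levels, with 16 of the 23 genes above granulocyte-lineage cells in all 5 pups.

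**Figure D2:**
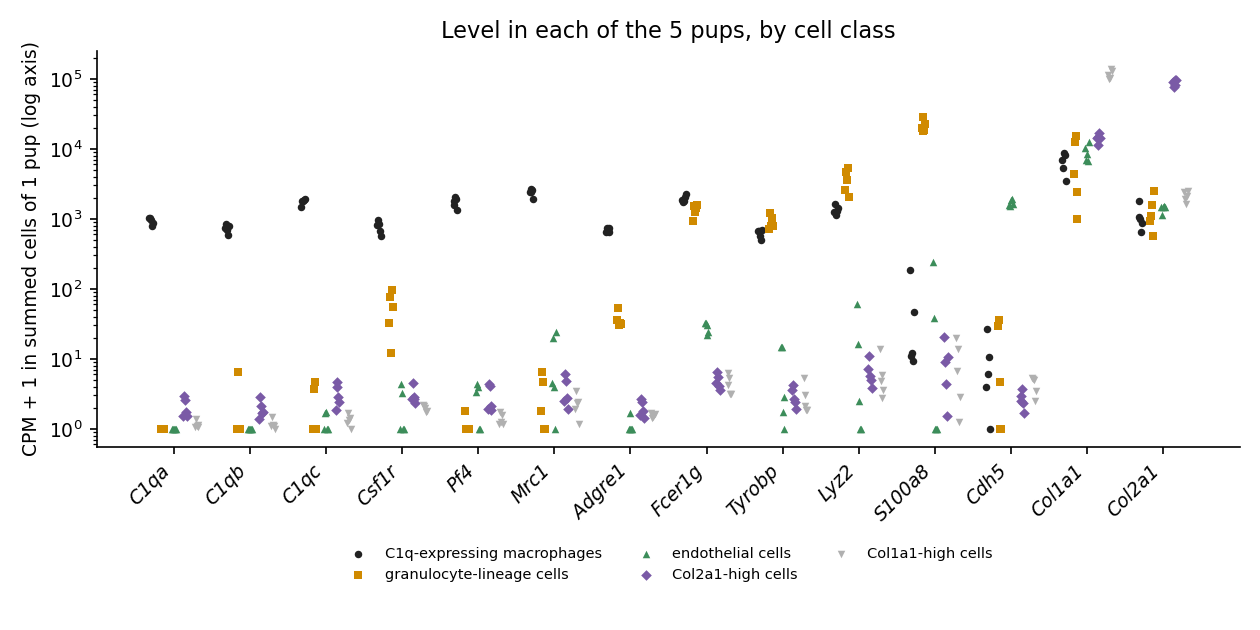
Each point is the CPM + 1 of a gene in the summed cells of 1 pup and 1 class, on a log axis, for genes of 5 classes. C1qa, C1qb, C1qc, Pf4, Mrc1 and Adgre1 lie far higher in the macrophages than in any other class, whereas Lyz2 and S100a8 are highest in granulocyte-lineage cells, Cdh5 in endothelial cells, and Col1a1 and Col2a1 in the classes named for them.

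The 10 genes with the highest ratio of CPM in members to CPM in other kept cells, among genes of at least 200 CPM in members and outside the rule, were Ccl12, Fcrls, Pf4, Mrc1, Cd163, Ms4a7, C3ar1, Folr2, P2ry12 and Adgre1. Their ratios over the summed pups ran from 466 for Adgre1 to 1791 for Ccl12, beside 1162 for C1qa. They were picked for this pattern, so it is a description, and likeness here is over 2 sets of cells in 5 pups. Ccl12 and Pf4 are chemokines, Mrc1, Cd163 and Folr2 are uptake receptors, and C3ar1 is the receptor of the complement fragment C3a. P2ry12, a nucleotide receptor, and Fcrls are best known from microglia. P2ry12 lay at 184, 224, 208, 185 and 126 CPM and Fcrls at 202, 214, 245, 248 and 169 CPM in pups 1 to 5.

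Pf4 and Ppbp are textbook platelet genes, and in these libraries they lay in the macrophages. Pf4 (CXCL4) reached 1809 and 1588 CPM in the WT pups and 2054, 1939 and 1338 CPM in the mutant pups, against 0.741 to 2.59 CPM in other kept cells. It was detected in 580 of 657 members (88.3%). Ppbp (CXCL7) reached 101 and 75.8 CPM in the WT pups and 114, 119 and 56.3 CPM in the mutant pups, against 0.0154 to 0.557 CPM elsewhere. Ppbp was found in 152 of 580 members with Pf4 and in 0 of 77 without it, which allows up to 3.90% of such cells to have a Ppbp UMI at this depth and sets no limit on cells that express it. The platelet and megakaryocyte genes Itga2b, Gp9, Gp1ba, Gp1bb and Gp6, which encode chains of the fibrinogen, von Willebrand factor and collagen receptors, gave no UMI among 5993682 UMIs of members, which allows up to 0.501 CPM. Of the platelet list, Pf4 and Ppbp had UMIs in all 5 pups, and Nrgn, Tubb1, Treml1 and Clec1b gave at most 3 UMIs each.

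Genes of the resident LYVE1-positive programme were high in every pup. Mrc1, the mannose receptor, reached 2385 and 2685 CPM in the WT pups and 2391, 2572 and 1935 CPM in the mutant pups. Lyve1, a hyaluronan receptor, reached 1042 and 1500.002 CPM in the WT pups and 1516, 1114 and 919 CPM in the mutant pups. F13a1, the transglutaminase chain of factor XIII, reached 1867 and 2437 CPM in the WT pups and 1899, 1835 and 1275 CPM in the mutant pups. Mutant pup 5 was lowest for all of them, and the groups overlapped. Selenop, the plasma selenium carrier, reached 6035 and 7286 CPM in the WT pups and 4649, 5073 and 4172 CPM in the mutant pups, with every mutant pup below both WT pups (log2 fold change -0.50, SE 0.15, adjusted p = 0.885, edgeR). Folr2, a folate receptor, lay at 341, 444, 401, 312 and 302 CPM and Cd163, the hemoglobin scavenger receptor, at 255, 411, 349.6, 266 and 389.8 CPM in pups 1 to 5. In contrast, Timd4, a receptor for phosphatidylserine, was detected in 15.2% of members, and Vsig4, a complement receptor, in 2.13%. Of the 16 genes of the list, 11 exceeded granulocyte-lineage, endothelial, Col2a1-high and Col1a1-high cells in all 5 pups, again without a share over all genes. In Col2a1-high cells, which should lack these receptors, the share with a UMI was 0.335% to 1.40% for Mrc1, 0.346% to 0.896% for Lyve1 and 0.306% to 0.785% for Folr2 by pup, at median depths of 6769 to 10782 UMIs. Lyve1 is also a lymphatic endothelial gene, and Cdh5 was found in 24 of 454 members with Lyve1 and in 4 of 203 without.

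Receptors and enzymes of uptake and digestion were broadly present. Cd36, a receptor for oxidized lipid, lay at 1471, 1425, 1678, 1207 and 1169 CPM, Stab1 at 1058, 834, 1081, 1031 and 676 CPM and Fcgr2b, the inhibitory Fc receptor, at 511, 877, 492, 697 and 642 CPM in pups 1 to 5. Marco, a scavenger receptor of other macrophage types, was found in 9 members. Of the 24 lysosomal genes, all had UMIs in every pup and 21 exceeded the 4 other classes in all 5 pups, again without a share over all genes. Ctsb reached 5915 and 6215 CPM in the WT pups and 5683, 5964 and 7739 CPM in the mutant pups, and Psap, the precursor of the saposins, reached 2452 and 2613 CPM in the WT pups and 2529, 3027 and 4348 CPM in the mutant pups. Mutant pup 5 was highest for both. Together the 24 genes took 2.09, 2.24, 2.08, 2.22 and 2.67% of the members' UMIs in pups 1 to 5.

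Beyond the C1q chains, the complement genes of the members were mostly receptors and regulators. C3ar1 lay at 724, 723, 785, 742 and 595 CPM, and C5ar1, the receptor of the fragment C5a, at 610.3, 878, 889, 1089.8 and 809 CPM. Cfp, properdin, which stabilizes the convertase of the alternative pathway, lay at 169, 157, 137, 96.7 and 153 CPM. The proteases that join C1q in the C1 complex were scarce in members, with C1ra at 5.83 to 12.3 CPM and C1s1 at 0 to 4.46 CPM, against 11.4 to 23.2 CPM and 12.6 to 30.7 CPM in other kept cells. C3 lay at 36.4, 15.8, 12.8, 5.45 and 20.3 CPM, and Cfb, an alternative pathway protease, gave no UMI.

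Among genes of heme and iron handling, 9 of 14 exceeded the 4 other classes in all pups, without a share over all genes. Hmox1, which opens the heme ring, lay at 683, 824, 942, 791 and 1061 CPM. Slc40a1, the iron exporter ferroportin, lay at 144, 202, 122, 138 and 92.4 CPM. Fth1, the ferritin heavy chain, lay at 8230.1, 7794, 6586, 7171 and 10433 CPM and was at 8813 to 16572 CPM in granulocyte-lineage cells. Among lipid genes, Apoe lay at 1235, 1473, 1012, 905 and 1343 CPM, Lpl, lipoprotein lipase, at 393, 339.9, 556, 433 and 725 CPM, and Fabp5, a fatty acid binding protein, at 482, 557, 470.1, 663 and 1537 CPM. Fabp5 in mutant pup 5 stood above the other 4 pups.

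Chemokine RNA was abundant and varied among pups. Cxcl2, a neutrophil attractant, reached 2867 and 5346 CPM in the WT pups and 5332, 8519.8 and 4490.1 CPM in the mutant pups. Ccl2, a monocyte attractant, reached 1532 and 3283 CPM in the WT pups and 2970.0, 4936 and 2444 CPM in the mutant pups. Ccl7 reached 820.1 and 1525 CPM in the WT pups and 1568, 2233 and 1212 CPM in the mutant pups. WT pup 1 was lowest and mutant pup 4 highest for each, and the other 3 pups lay between them. Tnf reached 460.3 and 552 CPM in the WT pups and 719, 1176 and 487 CPM in the mutant pups, and Nfkbia, the inhibitor that NF-kB itself induces, reached 1111 and 1358 CPM in the WT pups and 1491, 1565 and 1521 CPM in the mutant pups. The 16 chemokine genes summed to 10475, 16926, 16508, 25668 and 14137 CPM in pups 1 to 5, and the 16 inflammatory genes to 3848, 5438, 5899.9, 7128 and 5416 CPM. The 19 genes of the dissociation response, which enzymatic digestion is known to induce, summed to 22080.1, 28787, 28969.5, 26593 and 24744 CPM and were lowest in WT pup 1 as well. The part of digestion in the chemokine levels was not tested.

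Among secreted growth factors, Igf1 reached 605 and 663 CPM in the WT pups and 511, 752 and 518 CPM in the mutant pups, and Gdf15 reached 179 and 300.1 CPM in the WT pups and 296, 350.1 and 424 CPM in the mutant pups, against 149 to 516 CPM and 2.73 to 5.43 CPM in other kept cells. Osm, which acts on osteoblasts and chondrocytes, lay at 162, 269.7, 209, 263 and 248 CPM and Bmp2 at 37.9, 199, 119, 96.7 and 72.1 CPM in pups 1 to 5. Of the 20 factors, 3 exceeded the 4 other classes in all pups, with no share over all genes to set beside this. Il34, the second ligand of CSF1R, gave 1 UMI in all members. The receptors Csf2ra and Csf2rb lay at 208, 226, 238, 215 and 288 CPM and 128, 164, 119, 114 and 178 CPM. Among interferon-response genes, Ifi27l2a was even among pups at 246, 268, 224, 222 and 302 CPM, while Rsad2, an antiviral enzyme, was uneven at 2.91, 62.9, 97.6, 15.0 and 139.7 CPM.

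Markers of other myeloid and lymphoid cells differed in how far they were present. Tnfrsf11a, which encodes the receptor RANK of osteoclast precursors, lay at 124, 110.4, 105, 101 and 99.1 CPM, while Calcr and Oscar of mature osteoclasts gave no UMI and Dcstamp, Ocstamp and Siglec15 stayed at 0 to 7.28 CPM. Acp5 and Ctsk lay at 69.9, 31.7, 22.9, 61.3 and 63.1 CPM and 36.4, 45.8, 69.1, 32.7 and 40.6 CPM. Mmp9 was at 319 CPM in WT pup 1, where 217 of 219 UMIs came from 1 cell, and at 0 to 2.72 CPM in the other pups. The 8 dendritic genes summed to 72.8, 57.8, 38.5, 54.5 and 160.0 CPM, against 19.8 to 23.0 CPM in other kept cells, with Itgax in 11.9%, Zbtb46 in 9.28% and Siglech in 5.33% of members, and Xcr1, Clec9a, Cd209a, Flt3 and Ccr7 each in at most 4 members. The 7 mast cell genes summed to 4.37, 5.14, 1.12, 8.17 and 2.25 CPM, against 29.6 to 220.2 CPM in other kept cells, and the 6 pericyte genes to 62.6, 217, 93.1, 51.8 and 51.8 CPM, against 466 to 841 CPM, so both lay below. The 8 endothelial genes summed to 11.7, 95.0, 24.5, 55.9 and 15.8 CPM, against 20.1 to 76.3 CPM, with WT pup 2 above that range. The 7 muscle and Schwann genes summed to 4.37, 11.6, 53.5, 6.81 and 2.25 CPM, against 9.34 to 37.7 CPM, and the 8 lymphoid genes to 74.3, 30.8, 13.4, 25.9 and 94.6 CPM, against 1.08 to 13.4 CPM. The 10 monocyte genes summed to 396, 253, 249, 176 and 493 CPM, against 9.03 to 87.2 CPM in other kept cells, so their RNA was present in members and highest in mutant pup 5. Granulocyte genes summed to 899, 30.0, 27.3, 23.2 and 67.6 CPM, against 15.9 to 684 CPM in other kept cells, with WT pup 1 above that range and S100a8 at 184, 9.85, 11.2, 8.17 and 45.1 CPM.

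MHC class II RNA was held by very few cells. H2-Aa was detected in 17 of 657 members (2.59%), and 12 members with at least 5 UMIs of H2-Aa, H2-Ab1 and H2-Eb1 held 1255 of the 1288 UMIs of these genes. By pup they numbered 1, 7, 2, 1 and 1. Cd74, the invariant chain, was detected in 24.7% of members and lay at 93.2, 273, 92.0, 112 and 31.5 CPM. Cd86, a costimulatory ligand, lay at 175, 202, 206, 230.2 and 171 CPM, and Cd83 at 607, 877, 850.4, 606 and 572 CPM.

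A sizeable part of the macrophages carried RNA of cell division. At least 5 of 18 G2 and M phase genes were detected in 17 and 58 members in the WT pups and 53, 23 and 13 members in the mutant pups, or 27.0, 25.6, 25.4, 22.3 and 23.6%. Mki67 lay at 319, 369, 323, 263 and 299.6 CPM and Top2a, a topoisomerase of dividing cells, at 396, 327, 278, 335 and 219 CPM in pups 1 to 5, against 80.1 to 160.3 CPM and 155 to 214 CPM in other kept cells. Pcna, a replication clamp, lay at 489, 452, 482, 447 and 333 CPM. Cells were not called by phase. After each cell was thinned to 3000 UMIs, which left out 9 shallower members, the expected share of members with Mki67 was 29.6 and 34.8% in the WT pups and 32.4, 28.6 and 27.0% in the mutant pups. The same thinned shares for Mki67 were 7.20% to 10.9% in Col2a1-high cells, 16.9% to 24.5% in endothelial cells and 23.1% to 51.6% in granulocyte-lineage cells, whose range held that of the macrophages. None of the 18 G2 and M phase genes exceeded granulocyte-lineage cells in all 5 pups. In mutant pup 4 that class held 8 cells with a median of 2741 UMIs, under the thinning depth, so its values there are coarse.

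The macrophages were not uniform, and they are divided here by Mrc1. This division was chosen after the values were seen, was not compared with other divisions and is given as a description without a test. A Mrc1 UMI was present in 584 members and absent in 73. The 2 sets differed in depth, with medians of 8538 and 6577 UMIs, and in the median C1q sum, 31.5 and 14 UMIs. Members without Mrc1 numbered 5 and 17 in the WT pups and 20, 11 and 20 in the mutant pups, or 7.94, 7.49, 9.57, 10.7 and 36.4% of members. Mutant pup 5 stood above the other 4 pups.

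The genes of the resident programme went with Mrc1. Pf4 was detected in 97.4% of members with Mrc1 and 15.1% of those without, Lyve1 in 77.6% and 1.37%, and Folr2 in 80.0% and 4.11%. Cd163 was detected in 50.5% and in 0 of 73 of the shallower cells without Mrc1, which allows up to 4.11% with a Cd163 UMI and sets no limit on cells that express it. Summed over pups, Pf4 lay at 1958 CPM with Mrc1 and 45.7 CPM without, F13a1 at 2252 CPM with Mrc1 and 132 CPM without, Ccl2 at 3445 CPM with Mrc1 and 114 CPM without and Selenop at 6357 CPM with Mrc1 and 1035 CPM without. Cxcl10 and Ccl12, at 476 and 603 CPM with Mrc1, gave no UMI without it, which is at least 90.1-fold and at least 114-fold higher against a floor of 3 UMIs over the group. Apart from Mrc1 itself, all 12 resident genes with at least 100 UMIs were higher with Mrc1 in all 5 pups, and so were 11 of 13 chemokine genes and 8 of 16 S phase genes. Of all 6978 genes with at least 100 UMIs, 17.4% were higher with Mrc1 in all 5 pups and 10.0% were higher without.

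Members without Mrc1 held other RNAs. Plac8 lay at 7.93 CPM with Mrc1 and 317 CPM without, Itgax, which encodes CD11c, at 15.7 CPM with Mrc1 and 257 CPM without, and Mpeg1, which encodes the pore-forming perforin-2, at 161 CPM with Mrc1 and 1773 CPM without. Abcg1, a sterol exporter, lay at 32.6 CPM with Mrc1 and 537 CPM without, Fabp5 at 394 CPM with Mrc1 and 2651 CPM without and Psap at 2244 CPM with Mrc1 and 7560.1 CPM without. Il1b lay at 97.9 CPM with Mrc1 and 591 CPM without and Vegfa at 27.8 CPM with Mrc1 and 408 CPM without. All of these were higher without Mrc1 in all 5 pups. Ccr2, the receptor for CCL2 on blood monocytes, was detected in 38.4% of members without Mrc1 and 5.14% of those with it. Of the 13 lipid genes with at least 100 UMIs, 8 were higher without Mrc1 in all 5 pups, and 1 was higher with it. The 19 phagocytic receptor genes went both ways, 9 higher without and 6 higher with Mrc1 in all 5 pups. Outside the lists, Thbs1, a matrix glycoprotein, stood at 3971 CPM without Mrc1 and 213 CPM with it, Spp1, osteopontin, at 1714 and 183 CPM, and Clec7a, the beta-glucan receptor dectin-1, at 662 and 54.4 CPM. Trem2 lay at 157 CPM with Mrc1 and 160.1 CPM without, higher with it in 3 pups and lower in 2.

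**Figure D3:**
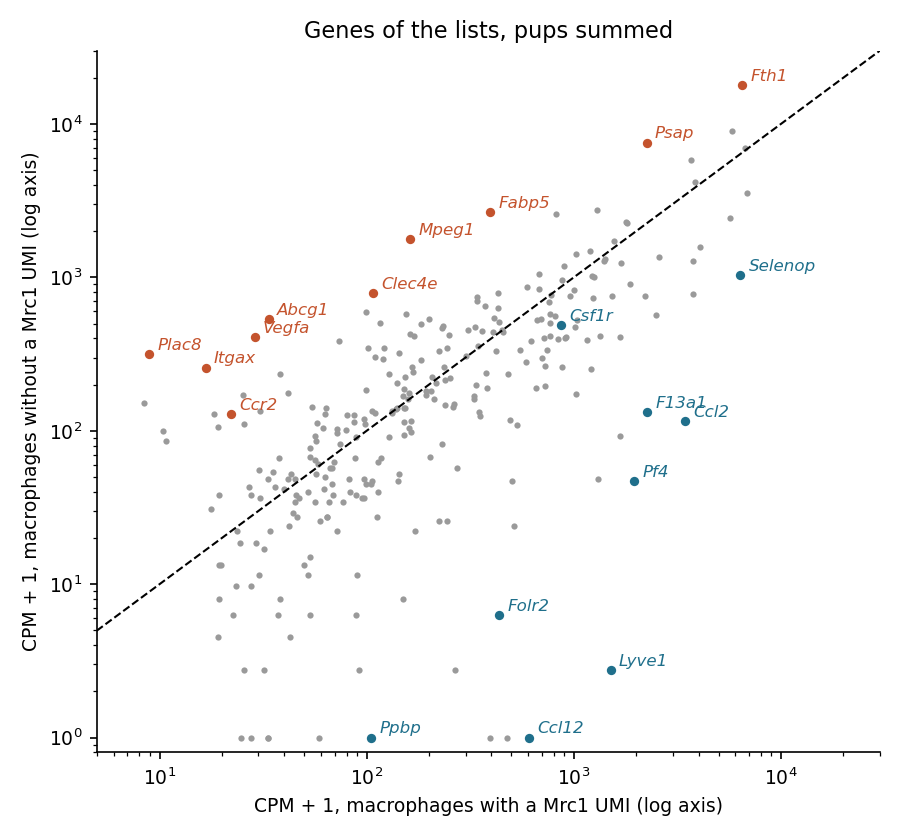
Each point is a gene of the lists with at least 100 UMIs, placed by its CPM + 1 in the summed members with a Mrc1 UMI and in those without, both on log axes, and the dashed line marks equal levels. Named genes in blue were higher with Mrc1 in all 5 pups and those in orange higher without in all 5 pups, with Lyve1 at 1505 against 1.76 CPM and Plac8 at 7.93 against 317 CPM.

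Some RNAs were spread over nearly all members and others sat in a few. The 66 richest cells for each gene, about 10% of the members, held 22.1% of C1qc UMIs, 25.6% of Pf4 UMIs and 44.3% of Lyve1 UMIs. They held 95.4% of Gpnmb UMIs, with Gpnmb, a lysosomal glycoprotein, detected in 16.4% of members. They held 84.0% of Csf1 UMIs, a gene detected in 21.5%. A level of such a gene in the summed cells of a pup rests on few cells.

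**Figure D4:**
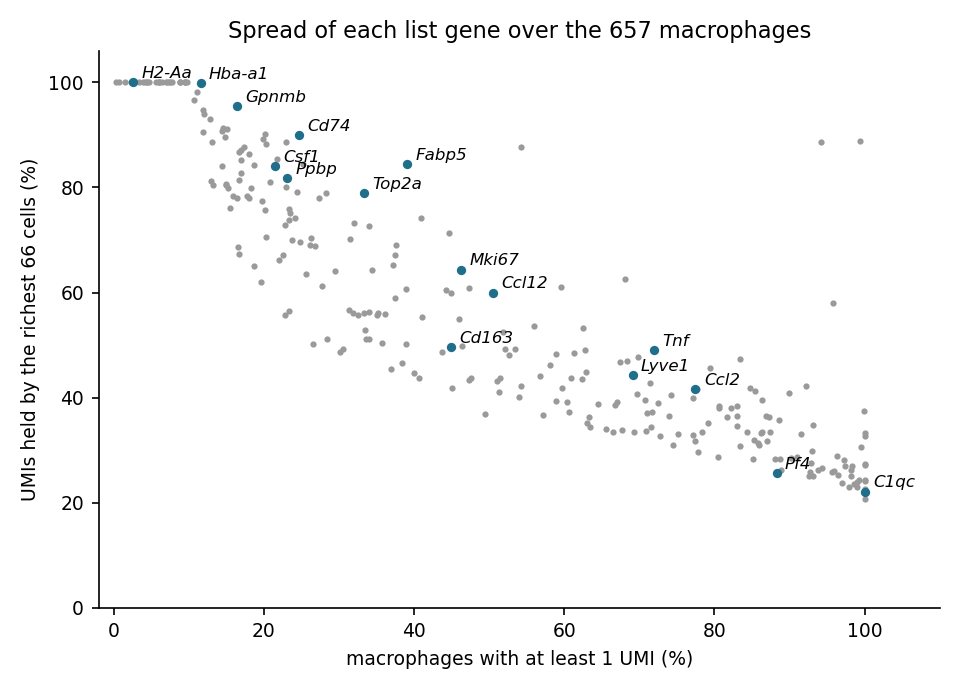
Each point is a gene of the lists with at least 100 UMIs, placed by the percentage of the 657 macrophages with at least 1 UMI and by the percentage of its UMIs held by the 66 richest cells. Pf4 and C1qc sit at the lower right, with most cells contributing, and H2-Aa and Hba-a1 at the upper left, with nearly all UMIs in a few cells.

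Chondrocyte and fibroblast RNA was present in the members of every pup, at lower summed levels than in the other kept cells. Col1a1 was detected in 99.4% of members and lay at 6929, 5318, 8767, 8239 and 3519 CPM in pups 1 to 5. The 15 chondrocyte genes summed to 3305, 2448, 2154, 1469.9 and 1710.0 CPM in pups 1 to 5, against 85765 to 132608 CPM in other kept cells. The 9 fibroblast and perichondrium genes summed to 11949, 9044, 15352, 13676 and 6398 CPM, against 57464 to 92217 CPM. The 8 erythroid genes summed to 45.2, 3102, 2644, 161 and 18.0 CPM, against 238 to 1302 CPM in other kept cells, so the members of WT pup 2 and mutant pup 3 lay above that range and those of the other 3 pups below it. By limits set after the values were seen, 62 of 657 members held RNA of another type, 46 of them Col1a1, 12 hemoglobin and 3 Cdh5. No doublet caller was run, and the genotype fit was repeated without these cells.

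No gene passed the threshold between mutant and WT macrophages. edgeR's quasi-likelihood test on the summed counts of each pup tested 7891 genes and called 0 at an adjusted p under 0.05 (0.0%), with 393 genes at an unadjusted p under 0.05, and DESeq2 also called 0, with 166 at an unadjusted p under 0.05. Every mutant pup lay above both WT pups for 713 genes (9.04%) and below both for 1044 genes (13.2%). The smallest adjusted p values were 0.112, for Gm47283 (log2 fold change 2.06, SE 0.33) and for Mylk, a smooth muscle kinase (log2 fold change -2.32, SE 0.38), and both genes are named outside the naming rule, after their values were seen. Acta2, smooth muscle actin, lay at 2.91, 119, 3.35, 1.36 and 2.25 CPM in pups 1 to 5, with 170 of 287 UMIs in 1 cell of WT pup 2, and the part of such cells in the Mylk value was not tested. The median log2 fold change of all tested genes was -0.00. It was 0.01 for 23 macrophage genes, -0.11 for 13 tested resident genes, 0.05 for 24 lysosomal genes, 0.01 for 19 phagocytic receptor genes, -0.11 for 11 tested complement genes other than C1qa, C1qb and C1qc, -0.06 for 13 heme and iron genes and 0.04 for 17 calcium and NFAT genes. With 1 pup left out the macrophage median ran from -0.09 to 0.04, the lysosomal from -0.03 to 0.14 and the phagocytic receptor from -0.05 to 0.03. The calcium and NFAT median ran from -0.03 to 0.05, so all of these turned sign. The resident median ran from -0.32 to -0.001 and the heme and iron median from -0.18 to -0.02.

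Csf1, which encodes the macrophage growth factor itself, was among the genes of smallest genotype p in the naming rule. Csf1 reached 40.8 and 50.5 CPM in the WT pups and 114, 187 and 87.9 CPM in the mutant pups, a mean of 45.7 ± 6.88 CPM (SD, n = 2) in WT and 129 ± 51.2 CPM (SD, n = 3) in mutant pups. All 3 mutant pups lay above both WT pups, and the change did not pass (log2 fold change 1.50, SE 0.30, adjusted p = 0.513, edgeR). It rests on 28, 118, 204, 137 and 39 UMIs in pups 1 to 5. Over 18 alternative settings its log2 fold change ran from 0.92 to 2.05, with an adjusted p from 1.35e-07 to 0.963, and it passed in 3 of them, without mutant pup 5, with mutant pup 4 alone and without the filter on low counts. Csf1 in other kept cells lay at 71.5, 79.4, 77.2, 67.9 and 54.3 CPM, and in endothelial cells at 127 to 229 CPM.

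The other 9 genes of smallest p with at least 50 CPM did not pass either, with adjusted p from 0.513 to 0.728 in edgeR. Clec10a, a galactose-binding lectin of macrophages, lay at 85.9 and 112 CPM in the WT pups and 52.4, 61.3 and 63.1 CPM in the mutant pups, with every mutant pup below both WT pups. Abl2, a cytoskeletal kinase, lay at 114 and 123 CPM in the WT pups and 181, 239.8 and 155 CPM in the mutant pups, and Slc38a1, a glutamine transporter, at 102 and 99.7 CPM in the WT pups and 134, 189 and 178 CPM in the mutant pups, with every mutant pup above both WT pups. Ccn1 and Col6a3, which other kept cells held at 1046 to 1359 CPM and 821 to 1174 CPM, were higher in value in all mutant pups (0.71 and 0.61 on the log2 scale). Igfbp5 and Col11a2, with 451 to 942 CPM and 3016 to 4386 CPM in other kept cells, were lower in value (-0.96 and -0.83), and the sign of Igfbp5 turned to 0.44 without the members that held RNA of other types. Eif2s3x and Kdm5c, X-linked genes known to escape X inactivation, lay at 127, 108, 196, 221 and 146 CPM and 51.0, 59.9, 88.7, 94.0 and 96.9 CPM in pups 1 to 5, and Xist was present in mutant pups 3 and 4.

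**Figure D5:**
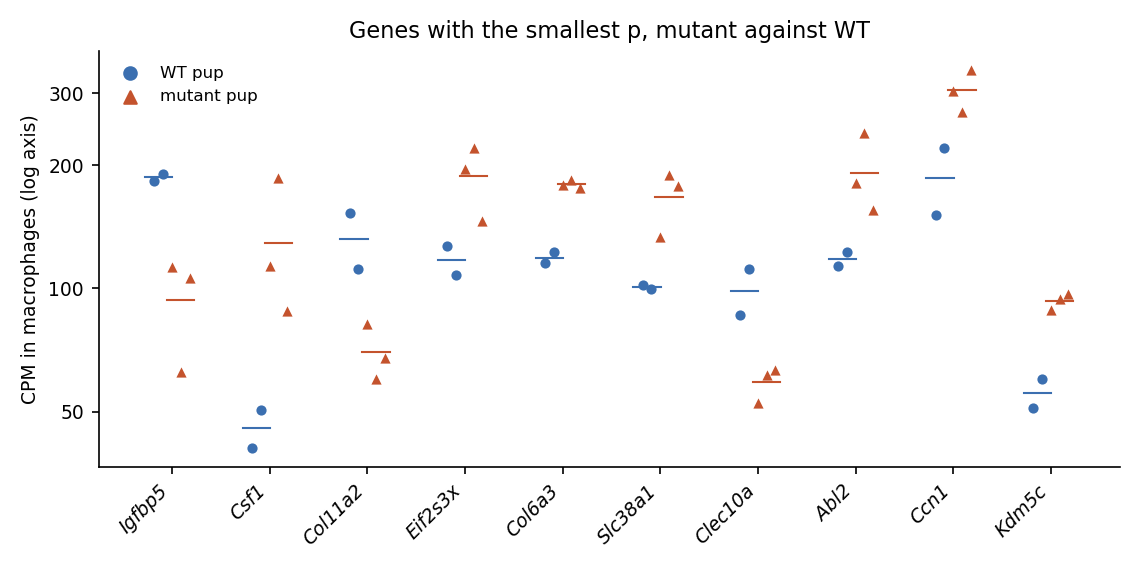
CPM in the summed macrophages of each pup, on a log axis, for the 10 genes of smallest p with a mean of at least 50 CPM, with circles for WT pups, triangles for mutant pups and lines for group means. The groups do not overlap for these genes, and none passed the adjusted threshold.

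In the inflammatory list, 12 of 13 tested genes had a log2 fold change above 0, with a median of 0.33, and for 6 of 13 every mutant pup lay above both WT pups, beside 9.04% of all genes. None passed. Nlrp3, a sensor of the inflammasome, lay at 198 and 405 CPM in the WT pups and 448, 617 and 466 CPM in the mutant pups, and Il1rn, the antagonist of the IL-1 receptor, at 94.7 and 182 CPM in the WT pups and 191, 209.8 and 394 CPM in the mutant pups. Il1a lay at 83.0 and 145 CPM in the WT pups and 246, 451 and 139.7 CPM in the mutant pups, with overlap of the groups. WT pup 1, which was lowest for Nlrp3, Il1rn and Il1a, was also lowest in the dissociation response genes. The median was 0.28 for 15 chemokine genes, 0.35 for 13 growth factor genes, 0.17 for 13 interferon genes and 0.19 for 13 lipid genes, and none of these genes passed. With 1 pup left out these medians ran from 0.08 to 0.59, 0.06 to 0.70, -0.18 to 0.74 and 0.07 to 0.47, so the interferon median turned sign. The inflammatory median ran from 0.19 to 0.68. For S phase and G2 and M phase genes the median was -0.16 and 0.03. With 1 pup left out these ran from -0.31 to -0.015 and from -0.09 to 0.14, so the G2 and M phase median turned sign. For 12 of 15 chondrocyte genes every mutant pup lay below both WT pups, beside 13.2% of all genes (median -0.75, and -0.68 for the 14 without Col2a1). The 12 include Col2a1, which is limited by the rule, so this count is a description. How far the other chondrocyte genes followed Col2a1 was not tested. Col2a1 lay at 1818 and 1048 CPM in the WT pups and 994, 643 and 856 CPM in the mutant pups.

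Trpv4, the gene that carries the knock-in allele, was scarce in the macrophages. It lay at 16.0 and 23.1 CPM in the WT pups and 12.3, 15.0 and 20.3 CPM in the mutant pups, against 145 to 216 CPM in Col2a1-high cells, and gave 107 UMIs in all members (log2 fold change -0.48, SE 0.35, adjusted p = 0.962, edgeR). Trpv4 was found in 13.2% of members, beside 7.03% to 13.7% of Col1a1-high, 7.23% to 17.0% of endothelial and 60.6% to 80.1% of Col2a1-high cells by pup. The counts do not tell the mutant from the WT allele, so whether members carried the recombined allele was not measured. Rcan1, a calcineurin-NFAT target, lay at 194, 339, 375, 658 and 205 CPM in pups 1 to 5, and its level in mutant pup 5 was close to that of WT pup 1.

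The share of macrophages with a marker UMI was compared for 5 genes after thinning to 3000 UMIs, by 2-sided exact permutation over the pups with Benjamini-Hochberg adjustment over 5 genes. The expected share of members with Lyve1 was 54.2 and 66.0% in the WT pups and 66.6, 58.8 and 41.6% in the mutant pups. For Folr2 it was 55.8 and 58.6% in the WT pups and 55.9, 47.6 and 38.9% in the mutant pups, and for Ccr2 3.59 and 6.18% in the WT pups and 5.33, 2.05 and 14.1% in the mutant pups. Mutant pup 5 was lowest for Lyve1 and Folr2 and highest for Ccr2, and the groups overlapped. For H2-Aa it was 1.46 and 3.65% in the WT pups and 1.13, 0.990 and 0.447% in the mutant pups. The thinned share of H2-Aa in endothelial cells reached 1.45%, so WT pup 2 lay above that level and the mutant pups lay at or below it. The smallest p by exact permutation was 0.1, for H2-Aa (adjusted p = 0.5), and the design allows none lower. Without thinning the shares were 60.3, 74.9, 73.2, 66.0 and 45.5% for Lyve1 and 7.94, 10.1, 7.18, 2.91 and 21.8% for Ccr2 in pups 1 to 5. They were 81.0, 75.8, 73.2, 66.0 and 47.3% for Folr2 and 46.0, 52.9, 45.0, 39.8 and 36.4% for Mki67. For H2-Aa they were 1.59, 4.85, 1.44, 0.971 and 1.82%. The grouping thus depended on thinning. Unthinned, every mutant pup lay below both WT pups for Folr2 and Mki67, and the groups overlapped for H2-Aa.

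Each mutant pup was also compared alone with both WT pups in edgeR, with its own spread assumed to be that of the WT pups, and the fits for pups 3 and 4 were added after seeing the data. Pup 5 had 157 genes past the threshold, 78 higher and 79 lower. Pup 3 had 6 and pup 4 had 19. Of the 78 higher genes, 56 were higher in members without Mrc1 than with Mrc1 in all 5 pups, beside 10.0% of genes with at least 100 UMIs, and cells of pup 5 enter both sides. Gpnmb lay at 85.9 and 142 CPM in the WT pups and 145, 102 and 426 CPM in the mutant pups, Itgax at 52.4 and 28.7 CPM in the WT pups and 20.6, 35.4 and 146 CPM in the mutant pups and Abcg1 at 88.9 and 66.4 CPM in the WT pups and 40.7, 113 and 248 CPM in the mutant pups, and mutant pup 5 stood above the other 4 pups for each. A fit with a term for the Xist-positive pups, in which the genotype contrast is again pup 5 against WT, called 31 genes, all of them among the 157. In pup 5 the share of members without Mrc1 was 36.4%, and the part of that share in the calls was not tested.

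The mutant against WT change was then compared between the macrophages and all other kept cells of the same pups, in 1 edgeR model with the pup as a block. It differed for 113 of 17376 genes (0.65%), 84 with a higher and 29 with a lower change in the macrophages, and DESeq2 called 1. Without WT pup 1 the balance of directions turned, with 16 higher and 31 lower, and with the Xist term it was 85 higher and 65 lower. In 76 of the 97 genes tested on both sides the change in value was larger in the other cells. Fitted alone, the other kept cells had 0 of 20957 genes past the threshold for mutant against WT in edgeR. Of the 113 genes, 86 had a higher level in granulocyte-lineage cells than in the other kept cells as a whole (76.1%, beside 42.5% of all genes tested). Granulocyte-lineage cells made up 0.966 and 0.386% in the WT pups and 0.287, 0.0447 and 0.145% in the mutant pups of kept cells, and their part in these calls was not tested. Cybb, the NADPH oxidase chain of phagocytes, had a log2 fold change of 0.01 in macrophages and -1.51 in other cells (difference 1.51, SE 0.24, adjusted p = 6.12e-07, edgeR). For Csf1 the change in value was larger in the macrophages, with 1.50 in macrophages and -0.08 in other cells. Its difference was 1.49 (SE 0.27, adjusted p = 3.67e-05, edgeR), and DESeq2 gave an adjusted p of 0.106.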

How the data were processed

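Growth plate cells of 5 pups were captured by the authors on the BD Rhapsody HT Express system, 1 library per pup, and processed with the platform's cloud pipeline (version not given in the sources used here, genome build mm10 per the submitters' processing notes, annotation not given in the sources used here). Raw UMI counts by gene and cell barcode, not normalized, are what the authors deposited, as 1 sparse matrix per pup. Cells with 200 to 6000 genes and at most 10% mitochondrial UMIs were kept, the limits of the study. Library depth was 117746735 to 183322632 UMIs. Counts of members were summed per pup and tested with edgeR 4.0.16 (TMM, filterByExpr, robust quasi-likelihood, Benjamini-Hochberg at 0.05) in R 4.3.3, with DESeq2 1.42.0 as an alternative, since cells are not replicates. The study made its statistical comparisons in Seurat. The script was tested on simulated data. Some genes are not reported here. Python 3.11.15 with pandas 2.3.3, scipy 1.17.1, numpy 2.4.6 and matplotlib 3.10.9 gave the other values.

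Members, the 30 gene lists (390 genes) and the tests were chosen with earlier results of these data known. Genes named are those of the rule, Pf4, Xist, Ddx3y, Trpv4, Csf1, Il34, up to 4 genes of highest CPM per list, the 10 of smallest genotype p with at least 50 CPM, and the 10 of highest ratio to other cells; other genes were named after their values were seen. Kept cells that were not members were called Col2a1-high at 200 or more Col2a1 UMIs per 10000, and below that limit granulocyte-lineage (S100a8 plus S100a9 at 50 or more per 10000), endothelial (Cdh5, Pecam1 and either Emcn or Kdr detected) or Col1a1-high (Col1a1 at 200 or more per 10000). Promoters came from RefSeq (GRCm38.p6). Thinned shares are exact expectations for 3000 UMIs drawn from each cell. No doublet caller was run. Alternatives were other C1q, mitochondrial and Col2a1 limits, leaving out each pup, mutant pup 5 alone, an Xist term, no filter on low counts, DESeq2 and its size factors, other thinning depths, and, chosen after seeing the data, mutant pups 3 and 4 each alone, members without RNA of other cell types and members with a Mrc1 UMI. Of the other cell types, limits were Col1a1 at 200, Hba-a1 or S100a8 at 50 UMIs per 10000, Cdh5 at 3 or Mpo at 10 UMIs.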

Additional observations from a re-analysis of the deposited data

Results flagged for a closer look

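The difference of the mutant against WT change between macrophages and all other kept cells was tested within 1 model and passed for 113 genes. Among all genes named here 21 passed, and the differences are given as macrophages minus other cells on the log2 scale (edgeR). It was above 0 for 17 of them. Among phagocyte genes it was 1.51 for Cybb, 1.44 for Ptprc, 1.60 for Lyz2, 1.13 for Tyrobp, 0.98 for Fcer1g, 0.91 for Itgam, 0.80 for Ctss and 1.35 for Mpeg1. In that order the log2 fold change in macrophages was 0.01, 0.05, -0.17, -0.16, 0.19, -0.11, 0.17 and 0.49. In other cells it was -1.51, -1.42, -1.70, -1.27, -0.77, -1.02, -0.68 and -1.12, a larger change in value for each of these genes. Among receptors the difference was 0.87 for C5ar1, 1.27 for Cd86 and 1.07 for Csf2rb. These receptors had 0.34, 0.13 and -0.13 in macrophages and -0.51, -1.16 and -1.20 in other cells. Among growth factor, cytokine and chemokine genes the difference was 1.49 for Csf1, 1.32 for Tnf, 1.50 for Il1a, 1.32 for Il1b, 1.10 for Cxcl1 and 1.21 for Cxcl2. The difference was below 0 for 4 of the 21 genes, -1.96 for Mylk, -1.25 for Igfbp5, -0.98 for Col2a1 and -10.82 for Mpo, where Col2a1 was limited by the rule. Over the alternatives it ran from -2.31 to -0.63 for Mylk, from -1.59 to 0.35 for Igfbp5 and from -1.40 to -0.62 for Col2a1. Of the Mpo UMIs of macrophages, 128 of 129 came from 1 cell of WT pup 1, so its value depends on the prior count, and it did not pass without the members that held RNA of other cell types. With 1 pup left out the difference ran from 0.46 to 1.22 for C5ar1, 0.53 to 1.26 for Itgam, 0.70 to 1.72 for Cxcl2 and 0.88 to 1.86 for Mpeg1, over 1.5 times from the value with all pups, and less far for the other 17 genes. The log2 fold change of Tnf was 0.68 in macrophages and -0.71 in other cells, that of Il1a 1.29 and -0.27, and that of Igfbp5 -0.96 and 0.22. For Il1b it was 0.26 and -1.08, for Cxcl1 0.93 and -0.22 and for Cxcl2 0.60 and -0.58. None of the changes given here passed within the macrophages alone, and none passed within the other kept cells alone (0 of 20957 genes, edgeR). Over 16 alternatives (15 for Mpo) the difference passed in 6 to 15, among them 12 for Csf1, 13 for Cybb, 10 for Igfbp5 and 6 for C5ar1, and in DESeq2 for none of the 21. No formal test for a sample far from its own group was made, since the groups hold 2 and 3 pups.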

How the results depend on the processing

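With each pup left out in turn, the mutant minus WT difference in the share of macrophages ran from -0.682 to 0.272 percentage points and reversed without WT pup 2. The differences in thinned shares ran from -10.4 to 2.57 points for Lyve1, -1.19 to 4.83 for Ccr2, -13.9 to -5.45 for Folr2, -2.80 to -0.604 for H2-Aa and -5.48 to -0.295 for Mki67; Lyve1 reversed without WT pup 2 or mutant pup 5 and Ccr2 without mutant pup 5. Genes called in macrophages by genotype numbered 0 to 18 with 1 pup left out (11 without WT pup 1, 18 without WT pup 2, 7 without mutant pup 5), 5 with a C1q sum of at least 3, 157, 6 and 19 with mutant pup 5, 3 or 4 alone, 23 without a filter on low counts, 31 with an Xist term and 2 in members with a Mrc1 UMI, and 0 under the other 6 alternatives. Without WT pup 1 the calls included Acta2, and without WT pup 2 they included Mmp9, S100a9 and Mpo, whose UMIs in WT pup 1 came mostly from 1 cell. Genes whose change differed from other cells numbered 38 to 162 with 1 pup left out (47 without WT pup 1, 38 without mutant pup 4) and 1 in DESeq2. Of named genes, Igfbp5 reversed to 0.44 without the members over the limits for RNA of other cell types, and its difference from other cells reversed there to 0.35. Members under those limits could still hold such RNA. Pf4, 0.10 with all pups, reversed to -0.0062 without mutant pup 3 (range -0.0062 to 0.27 with 1 pup left out), -0.33 with mutant pup 5 alone and -0.32 with the Xist term. The causes were not tested. No paired analysis was possible because the labels number the pups 1 to 5 and no number is shared between the genotypes. Depth limits genes under about 20 CPM, and no share test with 2 and 3 pups can give a p under 0.1.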

Other observations

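A further 1011 kept cells held Csf1r but no C1q UMI and were not described. Hemoglobin was detected in 11.6% of macrophages through Hba-a1, with 99.8% of its UMIs in the 66 richest cells and up to 606 UMIs in 1 cell. In mutant pup 4, Csf2 lay at 132 CPM against 1.46 to 24.5 CPM in the macrophages of the other pups, and Cxcl1 at 1305 CPM against 322 to 669.7 CPM. All 176 Csf2 UMIs were in macrophages with Mrc1.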
